A study of Homo sapiens with 15 samples.

Results

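The regions described here are FOXA1 peaks that were called after the stereoprobe WX-02-23 in cells with induced wild-type (WT) FOXA1 and in none of the 3 libraries they are set against. They were chosen from chromatin immunoprecipitation followed by sequencing (ChIP-seq) in 22Rv1, an established human prostate carcinoma cell line. A peak of the WT WX-02-23 list was taken when it shared no base with any peak of the WT DMSO, C258A DMSO or C258A WX-02-23 lists. Of 25849 peaks in that list, 5396 met the rule, and the 12 peak lists of the series held 249079 peaks in all. These are called WT-only gained sites below. The choice used called peaks in those 4 libraries, so their number, score and distance to those lists are descriptions. What they share with the other 8 lists was not used in the choice. Even so, it is not independent of the choice, which kept a WX-02-23 list and removed DMSO peaks and C258A WX-02-23 peaks. Every other peak of the WT WX-02-23 list was also called in another of the 4 libraries, so those peaks were selected for recurrence.

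All 4 libraries came from engineered 22Rv1 cells that overexpress Y36C-PHF5A, a form of the splicing factor PHF5A that the controls carry too. One line held doxycycline-inducible WT FOXA1 and the other doxycycline-inducible C258A FOXA1, in which a cysteine is replaced by alanine. All 4 received doxycycline, with either DMSO at 0.1% or WX-02-23 at 20 µM for 3 h. The 8 other lists came from parental cells and from each engineered line without doxycycline, given DMSO at 0.1% for 3 h. The parental cells carried neither transgene. For 3 h they received DMSO at 0.1%, WX-02-23 at 20 µM, the related stereoprobe WX-02-43 at 20 µM, or the splicing inhibitor PladB. Other parental cells received a small interfering RNA, either targeting FOXA1 (siFOXA1) or as a control (siControl). The antibody was against FOXA1, so endogenous and induced protein cannot be told apart. The labels do not say whether a line is 1 clone. Each group had 1 library, so no difference has a replicate check and no test between conditions was made. Intervals are 95% Wilson intervals, which cover counting error over peaks and treat peaks as independent.

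FOXA1 is a forkhead transcription factor that binds DNA through a winged-helix domain. It is called a pioneer factor because it can bind sites within closed chromatin and make them accessible to other factors. In prostate cells it opens many of the enhancers that the androgen receptor uses. A peak list shows where enough FOXA1-bound DNA was recovered to pass a caller's threshold, and a site absent from a list may be bound below that threshold. Sequences of the sites are not shown, because no genome of the files' build, hg19, was used here. Neither genes nor motifs at the sites were analysed here.

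The WT-only gained sites made up 20.9% (20.4 to 21.4%) of the WT WX-02-23 list and 18.0% of the bases it covered, 2.60 of 14.5 Mb. The other 20453 peaks were mostly called in several induced lists: 9748 were in all 4. Only 716 peaks absent from both DMSO lists were called with WX-02-23 in both lines. A further 246 peaks absent from the WT DMSO list were in the C258A DMSO list, 190 of them also with WX-02-23 and 56 without it. The 5270 peaks that were in the WT DMSO list and in neither C258A list were nearly as many as the WT-only gained sites.

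The same rule applied to each other list gives the scale of such private peaks. The WT DMSO list held 8190 (25.8%), the C258A WX-02-23 list 1722 (8.36%) and the C258A DMSO list 253 (1.90%). The lists differed in length, from 13299 peaks for C258A DMSO to 31735 for WT DMSO. With each reduced to its 13299 highest-scoring peaks, the private share was 22.4% (21.7 to 23.1%) for WT WX-02-23. It was then 12.2% for WT DMSO, 12.4% for C258A DMSO and 9.93% for C258A WX-02-23. At that length WT WX-02-23 thus held 2977 private peaks against 1623, 1651 and 1321, the highest of the 4 lists. Of those 2977 peaks, 1003 (33.7%) were WT-only gained sites as deposited, and 1974 had a lower-scoring partner in another deposited list, 1855 of them in WT DMSO.

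The WT-only gained sites had low scores within their list. The score is the authors' own value per peak, has no stated definition, and was compared only within a list, where the lowest was 90.0. The median was 119, with quartiles of 102 and 152, against 201, with quartiles of 133 and 349, for the rest of the list. A score below 120 was held by 51.3% of the sites and by 18.7% of the other peaks. A total of 617 sites scored at least 200, 151 at least 300, and 32 at least 500. Of the peaks in the lowest decile of the list by score, 46.2% were WT-only gained sites, and of those in the highest decile 0.928%, or 24 peaks. The sites were also narrower, with a median width of 468 bp against 550 bp. The 716 peaks gained in both lines lay between these values, with a median score of 133 and a median width of 488 bp. Low scores were not particular to the WT-only gained sites. Private peaks of the WT DMSO list had a median score of 122, where that whole list had 192. For the C258A line the medians were 108 against 177 with WX-02-23, and 102 against 165 with DMSO. Private C258A WX-02-23 peaks were narrow too, at a median of 433 bp against 547 bp for that whole list.

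**Figure D1:**
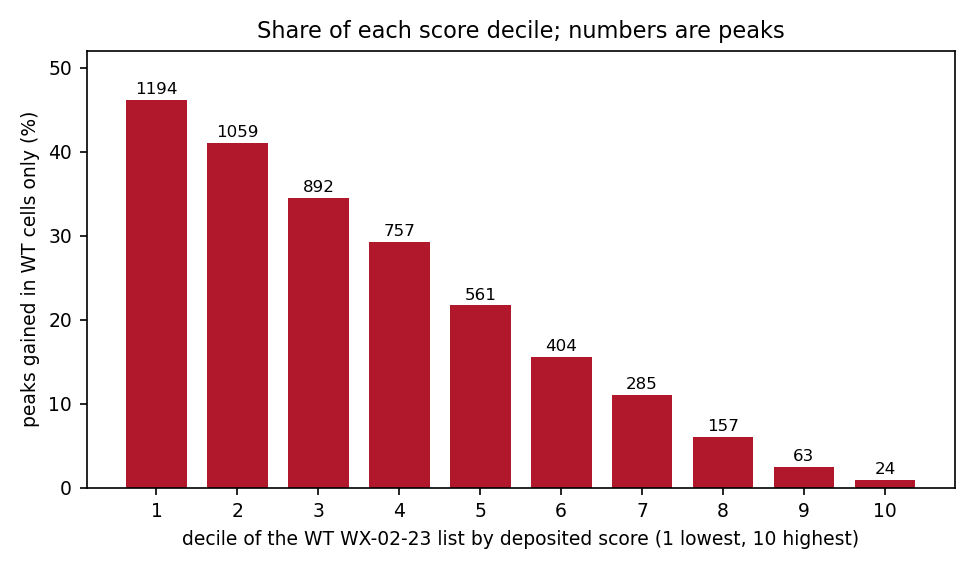
Share of peaks (y axis, percent) that are WT-only gained sites in each decile of the WT WX-02-23 list by deposited score (x axis, 1 lowest to 10 highest), with the number of sites above each bar. The share falls from 46.2% in the lowest decile to 0.928% in the highest.

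At the edge of the rule, absence from the WT DMSO list rested on a single base. The closest site inside, at 59872263 to 59872748 on chromosome 8, had a score of 116 and began at the base after a WT DMSO peak ended. Another, at 109404733 to 109405221 on chromosome 9 with score 132, left 1 base to a WT DMSO peak of score 1203. One at 53571867 to 53572415 on chromosome 17, with score 91.1, also left 1 base. Just outside was a peak of score 190 at 49201466 to 49202200 on chromosome 11, which shared 1 base with a WT DMSO peak. The others just outside lay on chromosome 1 from 224737956 to 224738484, with 5 shared bases, and on chromosome 9 from 111330920 to 111331377, with 9. Such cases were few: 238 sites (4.41%) lay within 500 bp of a WT DMSO peak, and 4.78% of the sites within 500 bp of a peak of any of the 3 lists.

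Most WT-only gained sites were called in no other list. Of the 5396, 4050 (75.1%, 73.9 to 76.2%) were in none of the 8 lists outside the rule, where 58.5% of all WT WX-02-23 peaks were in none. The share was not particular to these sites: of 1722 peaks private to the C258A WX-02-23 list, 75.3% (73.2 to 77.2%) were in none. The 4050 are taken up next. These 4050 sites were therefore called in 1 of 12 libraries. Their median gap to the nearest peak of any other list was 11.3 kb, and 421 of them (10.4%) lay more than 50 kb from any such peak. The share in none of the 8 lists was 74.5% in the lowest decile by score and 70.8% among the 24 sites in the highest. Over the 10 deciles it ranged from 70.8% to 82.2%. In the rest of the list it was 61.6% in the lowest decile and 36.4% in the highest.

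The other 1346 sites (24.9%) were called in at least 1 of the 8 lists, against 41.5% of the whole WT WX-02-23 list. Such a call does not show a site without compound: for 146 sites the only one was in parental WX-02-23. Parental DMSO called 926 (17.2%, 16.2 to 18.2%), where the whole WT WX-02-23 list stood at 34.8%. Parental WX-02-23 called 829 (15.4%, 14.4 to 16.3%, whole list 29.4%), and parental WX-02-43 called 514 (9.53%, 8.77 to 10.3%, whole list 27.4%). PladB called 1003 (18.6%) and siControl 1008 (18.7%), with 35.9% of the whole list in each. All 5 parental lists other than siFOXA1 called 381 sites (7.06%), against 22.7% of the whole list. In every one of these lists the sites were called less often than the rest of the list. This held in each decile by score for parental DMSO, WX-02-23 and WX-02-43. In the lowest decile, parental WX-02-23 called 13.7% (11.9 to 15.8%) of the sites and 21.6% of the other peaks. By the rule, each of the other peaks was also in at least 1 other induced list, so a higher share for them follows in part from the choice. Sites private to the C258A WX-02-23 list were called in parental DMSO at 19.2%, against 38.7% of that whole list.

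**Figure D2:**
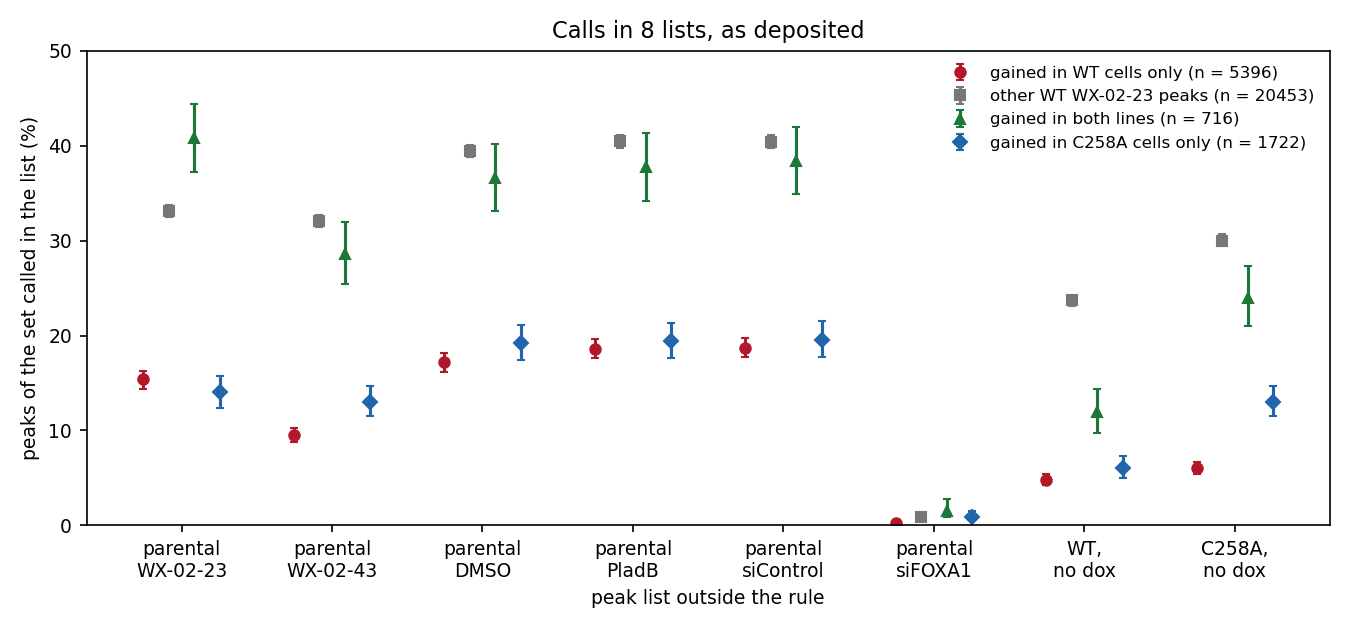
Share of each set of peaks (y axis, percent) that was called in each of 8 lists outside the rule (x axis), with 95% Wilson intervals over peaks. WT-only gained sites lie below the other WT WX-02-23 peaks in every list, and close to sites gained in C258A cells only in most.

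The parental lists differed in length, from 17217 peaks for WX-02-23 to 34119 for siControl, leaving the knockdown aside, so they were also compared at 17217 top-scoring peaks each. At that length WX-02-23 called 15.4% of the WT-only gained sites, above each of the other 4 lists. DMSO called 9.69% (8.93 to 10.5%), PladB 9.97%, siControl 9.71% and WX-02-43 8.82% (8.09 to 9.61%). Over the whole WT WX-02-23 list the corresponding shares were 29.4% with WX-02-23, 27.4% with DMSO, 27.3% with PladB, 26.9% with siControl and 26.5% with WX-02-43. The 716 peaks gained in both lines showed a wider gap, 40.8% with WX-02-23 (37.2 to 44.4%) against 25.0% with DMSO (22.0 to 28.3%). Sites private to the C258A WX-02-23 list stood at 14.0% (12.4 to 15.7%) with WX-02-23 and 12.8% (11.3 to 14.4%) with DMSO, intervals that overlap. The rule kept peaks of a WX-02-23 library and removed peaks called in the WT DMSO, C258A DMSO or C258A WX-02-23 libraries. The 716 peaks gained in both lines are among those it removed, so their contrast with the sites also depends on the choice. The 716 peaks were kept for calls in the WX-02-23 libraries of both lines. A higher share with parental WX-02-23 than with parental DMSO is therefore not independent of the choice. The difference between these sets was not tested.

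**Figure D3:**
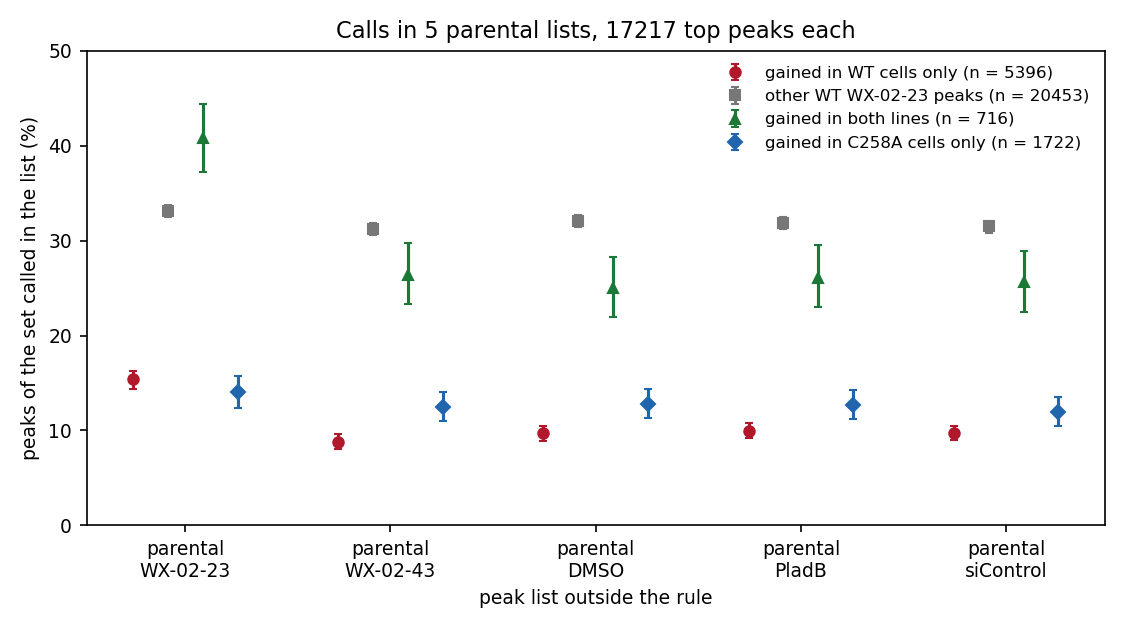
Share of each set of peaks (y axis, percent) called in 5 parental lists of 17217 top-scoring peaks each (x axis), with 95% Wilson intervals over peaks. WT-only gained sites stand at 15.4% with WX-02-23 and between 8.82% and 9.97% in the other 4 lists.

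The stereoprobes WX-02-23 and WX-02-43 were given to parental cells at the same dose and time, which makes them a matched pair with lists of similar length, 17217 and 18228 peaks. Among the WT-only gained sites, 420 were called with WX-02-23 and not with WX-02-43, and 105 the other way round. The corresponding shares were 7.78% and 1.95%, against 6.27% and 4.21% over the whole list. Of the 525 sites called with 1 of the pair, 80.0% (76.4 to 83.2%) were thus WX-02-23 sites. In the rest of the list this was 55.0% (52.9 to 57.1%), and among peaks gained in both lines 89.9% (82.8 to 94.3%). Among sites private to the C258A WX-02-23 list it was 56.8% (48.0 to 65.2%), and over that whole list 47.6%. Score moved the value, and the order held in both strata. In the 5 highest deciles by score it was 91.2% (84.5 to 95.1%) for WT-only gained sites and 63.1% for the rest, and in the 5 lowest 76.9% (72.6 to 80.7%) and 43.8%. The sites were chosen from a WX-02-23 list, with C258A WX-02-23 peaks removed, so the order of the pair is not independent of the choice. With 1 library per compound, these counts describe the libraries, and a difference between the compounds was not tested.

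Against parental DMSO the direction depended on list length and on score. As deposited, 232 of the sites (4.30%) were called with parental WX-02-23 and not with DMSO, and 329 (6.10%) with DMSO and not with WX-02-23. Over the whole WT WX-02-23 list these shares were 3.20% and 8.54%. With 17217 peaks per parental list the order turned round, with 416 sites (7.71%) in WX-02-23 alone and 110 (2.04%) in DMSO alone. The whole list turned round too at that length, to 6.26% and 4.21%. As deposited, the sites in the 5 highest deciles by score numbered 63 in WX-02-23 alone and 31 in DMSO alone, against 483 (3.74%) and 947 (7.33%) over all peaks of those deciles. Sites called in parental WX-02-23 and not in parental DMSO were a minority at either length. Those called in parental WX-02-23 and in none of parental DMSO, WX-02-43, PladB and siControl numbered 147 (2.72%, 2.32 to 3.19%), with 2.02% of the whole list in the same state. Those called only there among the 8 lists numbered 146, and their median score of 146 was above the 119 of the sites called in none.

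Without doxycycline, few of these sites were called. The lists were not compared at equal length, and held 8575 peaks for WT and 12752 for C258A. They came from the engineered lines whose induced lists the rule used, so a lower share follows in part from the choice. Sites private to the C258A WX-02-23 list stood at 6.04% in the uninduced WT list and 13.0% in the uninduced C258A list. The uninduced WT line called 257 (4.76%, 4.23 to 5.36%), against 19.8% of the whole list, and the uninduced C258A line 325 (6.02%, 5.42 to 6.69%), against 25.0%. At least 1 of these lists called 409 sites (7.58%), against 26.4% of the whole list, and 173 sites (3.21%) were in both, against 18.4%. Of the 409, 45 were not parental DMSO peaks, or 0.834% of all the sites against 1.25% of the whole list. The 257 sites were thus called in the uninduced library and the induced WX-02-23 library of the WT line, but not in its induced DMSO library. With siFOXA1, 12 sites (0.222%, 0.127 to 0.388%) were called, against 0.731% of the whole list.

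Where a WT-only gained site coincided with a peak of another list, that peak's place in its own list was read as a percentile by score. The median was 48.2 among parental WX-02-23 peaks (quartiles 28.1 and 68.5), 48.5 among DMSO peaks (27.7 and 69.5) and 40.1 among WX-02-43 peaks (18.9 and 59.6). Partners of the rest of the list stood higher, at medians of 68.7, 77.7 and 69.1. The rest had higher scores and was selected for recurrence, and the partners were not compared at equal score. These lists differ in length, so the same percentile is a different rank in each. In the lists without doxycycline the partners of the sites stood at 35.8 in WT and 32.4 in C258A cells, against 66.8 and 70.4 for the rest. With siFOXA1 the order was the other way, with 57.7 for the 12 partners of the sites and 45.9 for the rest.

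The distance to the WT DMSO peaks places the sites relative to FOXA1 peaks called without the compound. The median gap was 22169 bp (interval 21068 to 23267), with quartiles of 6684 and 56940 bp. Within 1000 bp of a WT DMSO peak lay 404 sites (7.49%), within 10000 bp 1692 (31.4%) and within 100000 bp 4669 (86.5%). For WT WX-02-23 peaks shared with WT DMSO, the median gap to the next DMSO peak was 16805 bp. The median was 22839 bp for peaks gained in both lines and 21100 bp for those private to C258A WX-02-23, both inside the interval above. The farthest site lay 1263032 bp from a WT DMSO peak. Score did not move with the gap: the median score was 118 within 1000 bp and 120 beyond 100000 bp.

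**Figure D4:**
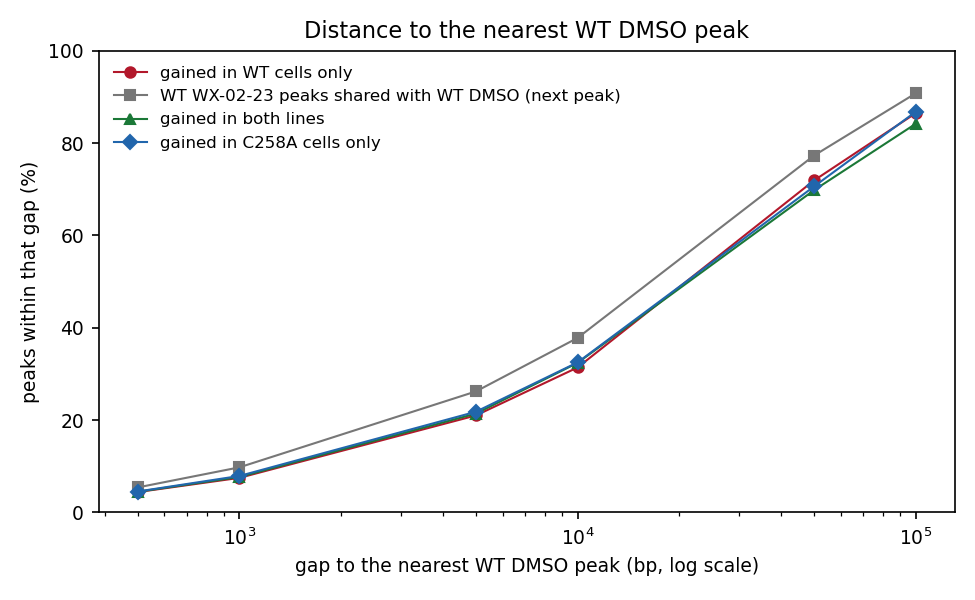
Share of peaks (y axis, percent) that lie within a given gap of the nearest WT DMSO peak (x axis, bp, log scale), for 3 sets of gained peaks and, as the distance to the next peak, for peaks shared with WT DMSO. The 3 gained sets nearly coincide, with 31.4 to 32.5% within 10000 bp, below the shared peaks at 37.8%.

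The nearest WT DMSO peak of each site was then followed into the WX-02-23 library. It was lost with WX-02-23 for 1991 sites (36.9%, 35.6 to 38.2%), while 39.3% of all WT DMSO peaks were lost. For shared peaks, the nearest other DMSO peak was lost at 38.0% (37.3 to 38.7%). The share beside the sites was thus no higher than beside shared peaks. Within 1000 bp the nearest DMSO peak was lost for 115 of 404 sites (28.5%, 24.3 to 33.1%), against 33.0% (30.9 to 35.1%) around shared peaks. These 404 sites adjoined 402 different DMSO peaks, with a median width of 642 bp against 634 bp for the whole DMSO list.

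The sites were spread over all 24 chromosomes roughly as the list was. The share of each chromosome's WT WX-02-23 peaks that were WT-only gained sites ran from 18.1% (16.0 to 20.5%) on chromosome 13 to 30.4% (24.6 to 37.0%) on chromosome 19. Chromosome X followed at 28.4% (24.5 to 32.7%), chromosome 20 at 27.3% (23.1 to 31.9%) and chromosome 15 at 26.4% (23.0 to 30.1%). These 4 intervals lie above the 20.9% of the list, as do those of chromosomes 5 and 10, at 22.8% and 23.9%. The intervals of chromosomes 1, 3, 8 and 13, at 18.1 to 18.7%, lie below it. By number, chromosome 1 held most sites, 472, and chromosome Y the fewest, 20. Because the sites have low scores, the share was also computed from the score make-up of each chromosome at the list's rate in each score decile. Chromosome 19 then came to 23.6% and X to 24.9%, so a part of their excess went with low scores, which had a median of 145 and 143 on these chromosomes. Chromosome 20 came to 20.6%, and 105 sites were found where 79.3 were computed, the highest ratio at 1.32.

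**Figure D5:**
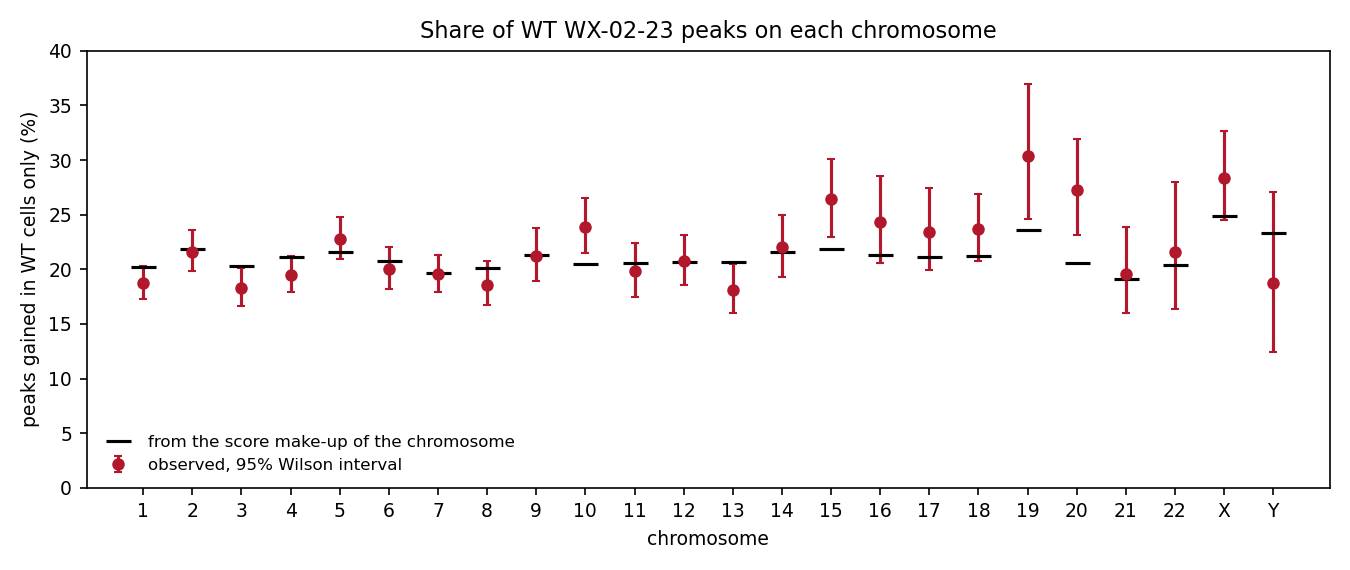
Share of WT WX-02-23 peaks (y axis, percent) that are WT-only gained sites on each chromosome (x axis), with 95% Wilson intervals, and the share computed from the chromosome's score make-up (black bars). Chromosomes 19, X, 20 and 15 are highest, at 26.4 to 30.4%.

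Few of the sites lay near each other. The median gap to the nearest other WT-only gained site was 145423 bp, and 35420 bp to the nearest WT WX-02-23 peak outside the set. Such gaps depend on how many peaks a set holds, here 5396 and 20453, and no set of equal size was compared. Joined at gaps of up to 12500 bp, 4873 sites (90.3%) had no other WT-only gained site beside them, 229 pairs were formed, and 20 runs held 3 or more. Counting every peak of the list, 33.7% of the sites had a neighbour within that gap, against 38.2% of the rest. The nearest peak of any kind in the list lay at a median of 26285 bp, against 20849 bp for the rest of the list.

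The longest run held 6 sites on chromosome X from 114965530 to 114989884. Its last 5 members were evenly spaced, with starts 2950, 3026, 2952 and 3019 bp apart. Repeat content was not analysed here, and in a tandem repeat, which can give such spacing, reads may not be placed uniquely, so calls in this span are given as values only. Scores in the run were between 98.8 and 212. All 6 sites were called in parental DMSO, WX-02-23, WX-02-43, PladB and siControl, and 3 of them with siFOXA1. In this span the 6 parental lists held between 6 and 17 peaks, WT DMSO, C258A DMSO and uninduced C258A none, and C258A WX-02-23 and uninduced WT 2 each. These 6 sites were thus called throughout the parental lists outside the knockdown, and in WT DMSO and all 3 C258A libraries none of them was called.

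Both other long runs held 4 sites. One spanned 26.0 kb on chromosome 10 from 3844852 to 3870830, with a highest score of 590, and its 4 sites were in none of the 8 lists. The other spanned 3.81 kb on chromosome 5 from 34217799 to 34221603, with a highest score of 275. Of its sites, 2 were parental DMSO peaks, 1 of which was also in parental WX-02-23, and 2 were in none of the 8 lists.

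The strongest site stood far above the others. It covered 38060388 to 38061991 on chromosome 14, and its score of 2525 ranked 46 in the list. It was called in 1 other library, uninduced WT cells, with a score of 741, and in no parental or C258A list. The nearest WT DMSO peak was 2039 bp away with a score of 157. Both engineered lines carry an added FOXA1 gene, whose reads can align to the FOXA1 gene of the genome. The site was not called in WT DMSO or in any C258A library, which come from these lines too. Whether this peak lies in that gene was not analysed here, so its score may not measure binding at this position. This was not tested. A site at 28344800 to 28345898 on chromosome 15 came next, with score 1344 and rank 305. The nearest peak of any other list, with PladB, was 106722 bp away. A score of 965 was held by a site on chromosome 5 from 172214035 to 172214581, which no other list called either, and whose nearest peak in any list was 10.4 kb away. Only these 3 sites ranked among the 1000 highest-scoring peaks of the list.

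The remaining 7 of the 10 strongest sites had scores between 666 and 751. Of these, 5 were in no other list: chromosome 8 from 131384902 to 131385505, chromosome 16 from 14144790 to 14145737, chromosome 17 from 9618651 to 9619631, chromosome 20 from 23640424 to 23641009, and chromosome 1 from 1975171 to 1975957. A site on chromosome 6 from 17586664 to 17587568 was also called with PladB, with a score of 281. The last was a wide peak of 2588 bp on chromosome 18 from 77378372 to 77380959. It was called in uninduced WT cells and in 4 parental lists, scoring 494 in the DMSO list, 1032 in the WX-02-23 list, 569 in the PladB list and 1153 in the siControl list. Of the 32 sites that scored at least 500, 24 were in none of the 8 lists. Over all WT-only gained sites this share was 75.1%, and among the other peaks of the highest score decile 36.4%.

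Among sites called in parental WX-02-23 and not in parental DMSO, the strongest lay on chromosome 21 from 19514847 to 19515712. Its score was 593 in WT and 342 in parental cells with WX-02-23, and no other list called it. The next, on chromosome 5 from 102127393 to 102128291, scored 529 and 176 and was also called with siControl. Those on chromosome 10 from 14539189 to 14539660, chromosome 12 from 46966696 to 46967305 and chromosome 13 from 75207848 to 75208256 scored 470, 443 and 371 in WT cells. All 3 were called with WX-02-23 in both kinds of cell and nowhere else, with parental scores of 157, 310 and 184.

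Of the sites called in parental DMSO, the one on chromosome 18 given above was the strongest. A site at 212260711 to 212261923 on chromosome 2 came next, with score 603. It was called in both uninduced lines and in parental DMSO, WX-02-43, PladB and siControl but not in parental WX-02-23. The third, on chromosome 22 from 24519448 to 24520034, scored 547 and was called in the 5 parental lists other than siFOXA1. Its parental score was 779 with WX-02-23 and between 223 and 249 in the other 4 lists, and scores of different lists cannot be compared directly. The widest site, 5023 bp on chromosome 16 from 46430808 to 46435830, had a score of 104. It was also called in uninduced WT cells and with siFOXA1, the only parental list that called it.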

How the data were processed

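The data were 12 deposited peak lists, 1 per FOXA1 ChIP-seq library of 22Rv1 cells. The 3 input libraries were not analysed here. Formaldehyde at 1.1% was the fixative and chromatin was sonicated, per the labels. The submitters' processing notes name bcl2fastq, Bowtie2 and the build hg19. Per the files, peak names begin with MACS. Caller version, threshold, control and the score's definition are not given in the sources used here. Each deposited list gives position and a score, which is the authors' value and was used only within a list. Read depth is unknown, and list length can move with it.

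Peaks were called shared at an overlap of 1 bp or more, by an interval search in Python 3.11.15 with numpy 2.4.6 and pandas 2.3.3, tested on simulated lists and checked with bedtools 2.31.1, which gave the same 5396 sites. A gap is the number of bases between 2 peaks. Positions are counted from 1. Wilson intervals came from scipy 1.17.1, and figures from matplotlib 3.10.9. Alternatives changed the overlap, score threshold, list length and chromosomes. Named peaks are the 10 sites of highest score, and the strongest 5 in parental WX-02-23 but not DMSO. They also include the strongest 3 in no other list, the strongest 3 in parental DMSO, the widest, the 3 longest runs, and 3 peaks on each side of the rule's edge. Sites and comparisons were chosen with earlier results of these data known. Sequence, motif and gene analyses were not run, for want of an hg19 genome here.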

Additional observations from a re-analysis of the deposited data

How the results depend on the processing

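Of 32 alternative values for 5 results, 11 did not leave the main value's interval (for counts, a factor of 1.5) and 21 did; none has a test. All 5 values from autosomes alone stayed. A reciprocal overlap of 50% gave shares of 12.7% in parental WX-02-23, 12.3% in parental DMSO and 77.5% in none of the 8 lists, and a median gap of 19481 bp. A gap of up to 500 bp counted as shared gave a median gap of 24076 bp, which follows from its construction. The top 50% of the WT WX-02-23 list gave 933 sites, 16.5%, 13.1%, 77.3% and 20959 bp, in the same order of results. A score of at least 200 gave 617 sites, 16.4%, 12.48% and 78.4%. The 4 induced lists at 13299 peaks gave 2977 sites, 24.2%, 23.4%, 66.6% and 54667 bp. Shares over all peaks under these settings are not given here, so a move of the sites is not set apart from a move of the list. In the rest of the list, parental WX-02-23 called 21.6% of the lowest score decile and 54.2% of the highest. With the 5 parental lists at 17217 peaks, an alternative added once the data had been seen, parental DMSO called 9.69% and none of the 8 lists called 79.5%. The order of parental WX-02-23 and DMSO therefore changed with the setting: WX-02-23 was higher under the reciprocal overlap, both score settings and both equal lengths, and lower as deposited, on autosomes and with the 500 bp gap. No paired analysis was possible because each group had 1 library. Unknown depth limits every count here, since a site missing from a shorter list may be bound below its threshold.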

Other observations

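The 12 WT-only gained sites that were also called after FOXA1 knockdown fell into a few kinds, and were described after their values were seen. Of these, 4 were called in all 8 lists outside the rule, on chromosomes 2, 3, 6 and 15, and had scores of 96.2, 128, 95.9 and 171 in the WT WX-02-23 list. On chromosome X, 3 belonged to the evenly spaced run. One at 117877536 to 117878310 on chromosome 5, with score 205, was called in no library other than WT WX-02-23 and siFOXA1. The strongest of the 12, at 39876465 to 39877255 on chromosome 19 with score 260, was called in 5 parental lists and not with siControl.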
